A study of Mus musculus with 4 samples.

Results

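The 56 genes described here act in the response to DNA damage and in its repair. They were taken as a list of gene symbols, and all 56 were found among the 23282 gene rows of the count files. The list was split by role into 15 genes of homologous recombination, 5 of end joining, 9 of damage signalling, 5 of the Fanconi pathway, 4 of mismatch repair, 9 of nucleotide excision repair and 9 of base excision and single-strand break repair. RNA sequencing read their transcripts in mammary gland tumours taken from FVB female mice aged 14 weeks. The tumours were labelled Nr1d1-/-;PyMT (2 libraries) or Nr1d1+/+;PyMT (2 libraries). PyMT was thus shared by both groups, and the Nr1d1 genotype was the only labelled difference between them. PyMT is the polyoma virus middle T antigen, an oncogene that gives rise to mammary carcinoma. The sources used here name neither the promoter that drives it nor the form of the Nr1d1 deletion. They also do not say that the libraries came from separate animals, so a p-value reflects the spread between samples that may be technical repeats.

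A cell repairs different lesions by different routes. Breaks through both strands are resected and copied from the sister chromatid in homologous recombination, or are rejoined directly in end joining. The Fanconi pathway opens crosslinks between the strands, mismatch repair corrects errors of replication, nucleotide excision repair cuts out bulky lesions, and base excision repair replaces single damaged bases. The kinases ATM and ATR signal that damage is present. Several of these genes, BRCA1 and BRCA2 first among them, are known for inherited breast cancer in people. The product of Nr1d1 is REV-ERBα, a repressor that belongs to the circadian clock and binds haem as a nuclear receptor. NR1D1 has been described at sites of DNA damage in human breast cancer cells. The comparison asks which repair transcripts differed between Nr1d1-/- and Nr1d1+/+ tumours.

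Promoter sequence was looked at for 44 of the 56 genes, those with a window in the RefSeq table for GRCm38.p6. Each window holds the 250 bases before the annotated start, given 5′ to 3′ on the gene's own strand. The 5 windows below were chosen for the results that follow. Ercc2, Apex1 and Rnf168 were higher in Nr1d1-/- tumours with and without correction for transcript length and base composition, and Msh3 and Ercc5 were the only members of the 44 that held the E2F-like letters. Capitals mark the letters of any motif that was searched.
Ercc2 (chr7:19381767-19382016, + strand): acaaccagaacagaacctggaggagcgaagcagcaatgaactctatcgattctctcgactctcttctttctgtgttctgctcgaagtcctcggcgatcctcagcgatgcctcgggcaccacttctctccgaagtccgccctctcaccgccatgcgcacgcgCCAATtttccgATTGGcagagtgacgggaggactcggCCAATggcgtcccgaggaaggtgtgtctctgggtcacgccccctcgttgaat
Apex1 (chr14:50924699-50924948, + strand): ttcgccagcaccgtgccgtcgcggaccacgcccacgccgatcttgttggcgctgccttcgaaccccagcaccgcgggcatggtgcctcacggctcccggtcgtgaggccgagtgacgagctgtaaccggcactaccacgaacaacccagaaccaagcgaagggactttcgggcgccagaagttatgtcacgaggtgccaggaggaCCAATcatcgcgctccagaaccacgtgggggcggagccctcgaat
Rnf168 (chr16:32277211-32277460, + strand): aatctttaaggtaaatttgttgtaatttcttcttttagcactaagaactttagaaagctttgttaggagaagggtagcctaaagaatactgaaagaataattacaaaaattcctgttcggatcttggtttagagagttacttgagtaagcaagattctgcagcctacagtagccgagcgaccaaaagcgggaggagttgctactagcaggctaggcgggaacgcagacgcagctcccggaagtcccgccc
Msh3 (chr13:92355004-92355253, - strand): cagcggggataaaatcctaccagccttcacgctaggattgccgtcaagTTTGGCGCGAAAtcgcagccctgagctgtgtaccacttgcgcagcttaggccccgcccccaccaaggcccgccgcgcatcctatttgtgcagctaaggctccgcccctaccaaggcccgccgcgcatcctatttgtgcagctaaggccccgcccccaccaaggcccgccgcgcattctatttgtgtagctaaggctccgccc
Ercc5 (chr1:44147494-44147743, + strand): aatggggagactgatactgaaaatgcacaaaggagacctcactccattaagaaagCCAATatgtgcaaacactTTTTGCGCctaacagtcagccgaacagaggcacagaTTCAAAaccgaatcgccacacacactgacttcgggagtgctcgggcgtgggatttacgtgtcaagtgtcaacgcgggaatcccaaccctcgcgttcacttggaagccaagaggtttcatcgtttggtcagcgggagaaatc

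Letters of 4 motifs were searched on both strands. The first, TTTNGCGC, is the kind of site read by E2F factors, which drive genes of the S phase. It was present in 2 of the 44 genes, or 4.55%. Of the 11013 tested genes with a window 2.25% held it, and of all 27025 genes with one 1.31% did. In Msh3 the letters stood on both strands and overlapped in 1 run, TTTGGCGCGAAA, and Ercc5 held them once. TTTGAA, the cell cycle homology region, was present in 3 of 44 genes (6.82%, in Bard1, Rnf8 and Ercc5) against 13.1% of tested genes. The CCAAT box was present in 24 of 44 genes (54.5%) against 39.9% of tested genes, with 3 copies in Ercc2, 1 in Apex1 and 1 in Ercc5. The response element that REV-ERB and ROR receptors share was in 0 of 44 genes, and was rare in all tested genes (0.154%). A gene was counted if any window listed for it held the letters, so a gene with several windows had more chances. The shares describe letters in these windows and were not tested.

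All 56 repair genes passed the filter on low counts, so all were among the 14801 genes tested. In Nr1d1-/- tumours 5 repair genes were higher (8.93%) and 9 were lower (16.1%) by edgeR's quasi-likelihood test at a Benjamini-Hochberg adjusted p under 0.05, while 42 did not pass. Among all tested genes 16.5% were higher and 17.3% were lower, so the share of repair genes that fell was near the background and the share that rose was below it. The counts rested on few libraries. Whichever library was left out, fewer repair genes were called in each direction, and so were fewer of all tested genes. The median log2 fold of Nr1d1-/- over Nr1d1+/+ was -0.14 over the 56 genes, between -0.27 and -0.044 across the 4 fits without 1 library, and -0.0065 over all tested genes. The 5 that rose were Ercc2, Apex1, Ercc1, H2afx and Rnf168. The 9 that fell were Rad50, Palb2, Prkdc, Fancm, Msh3, Trp53bp1, Ercc3, Ercc5 and Lig3. The groups did not overlap, with both Nr1d1-/- libraries on one side of both Nr1d1+/+ libraries, for 16 members on the higher side and 23 on the lower side, where 34.4% and 36.2% of all tested genes had such values. In bulk tumour tissue fewer cells of a type and less RNA per cell cannot be told apart, which holds for each level below. In homologous recombination, the Fanconi pathway and mismatch repair none was higher by edgeR, DESeq2 or limma-voom and none had an unadjusted p under 0.05 in that direction, while in end joining 1 gene, Xrcc6, did and none was called.

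**Figure D1:**
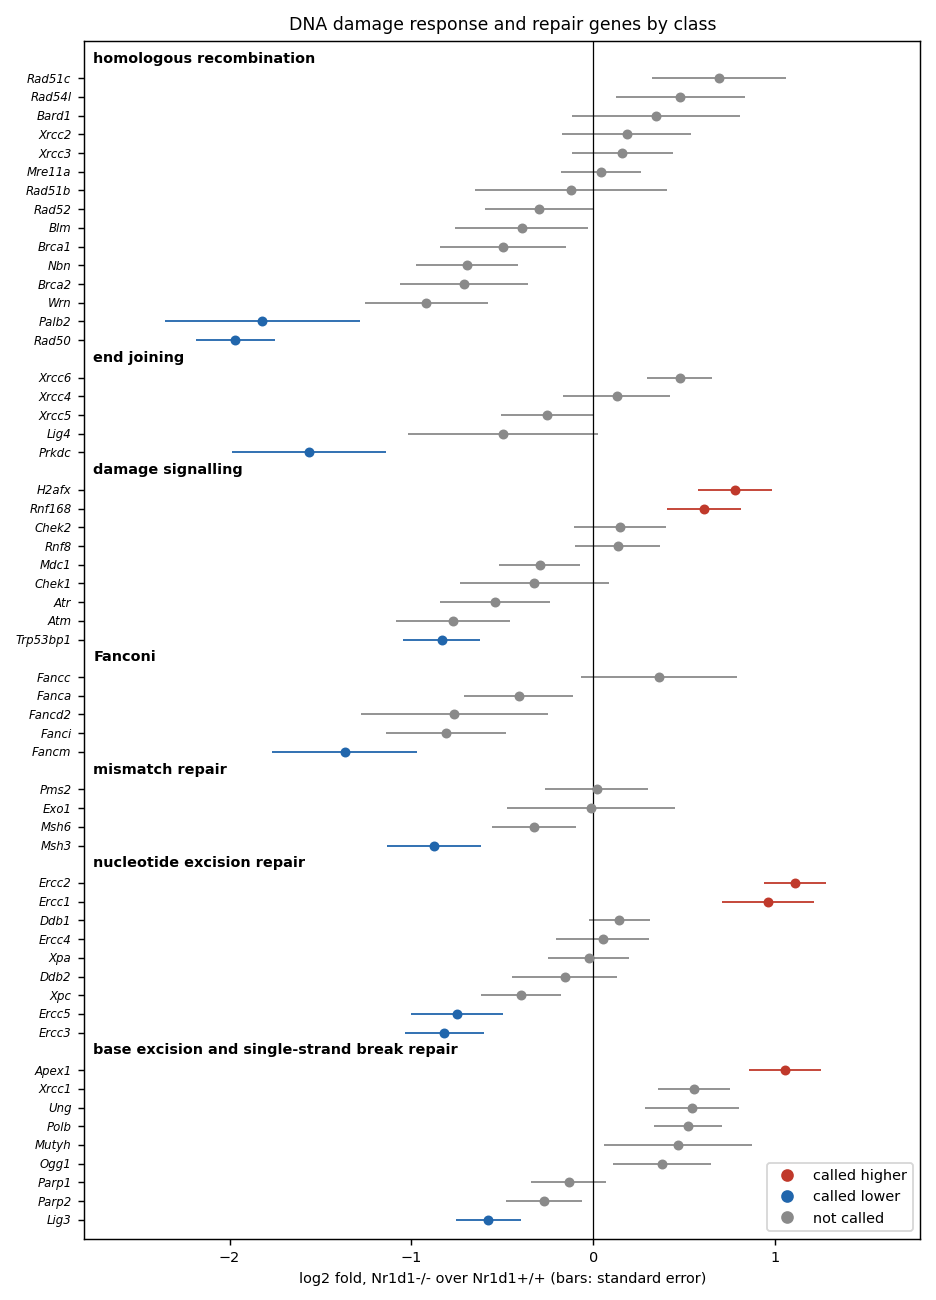
Log2 fold of Nr1d1-/- over Nr1d1+/+ (horizontal axis) with its standard error (bars) for each of the 56 repair genes, grouped by role and ordered within each role. The 5 genes called higher and the 9 called lower at an adjusted p under 0.05 are coloured; 4 of 5 Fanconi genes lie left of 0, and 6 of 9 base excision genes lie right of it, where their median is no longer positive once the length and GC trends are removed.

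The libraries held between 15905404 and 19116279 counts, and levels are given as CPM, the count scaled to the size of its library, with TMM factors between 0.859 and 1.18. On this scale 1 count was between 0.0473 and 0.0733 CPM and the floor of 3 counts was at most 0.22 CPM. The 56 genes together took 0.143% (0.141 to 0.145) and 0.155% (0.153 to 0.157) of all counts in Nr1d1-/- tumours, against 0.176% (0.175 to 0.178) and 0.191% (0.189 to 0.193) in Nr1d1+/+ tumours, with exact 95% binomial intervals that cover counting error only. After TMM scaling the same sums were 1668 and 1733 CPM in Nr1d1-/- tumours and 1595 and 1629 CPM in Nr1d1+/+ tumours, so the order of the groups depended on the scaling. Ercc2 alone, whose level is uncertain as described below, gave 225 and 239 CPM of these sums in Nr1d1-/- tumours. In Nr1d1+/+ tumours it gave 113 and 102 CPM. With scaling by total counts alone the median of all genes was -0.38, and 2 members were higher (3.57%) and 19 lower (33.9%), where 8.65% of all genes were higher and 29.8% lower. The ribosomal RNA transcript Rn45s, which bears on rRNA carry-over, was called higher, at 50818 and 85386 CPM in Nr1d1-/- tumours against 26586 and 28868 CPM in Nr1d1+/+ tumours (log2 fold 1.30, SE 0.42, edgeR adjusted p = 0.0434). Without Rn45s in the counts the members called were again 5 higher and 9 lower. Nr1d1 itself had 10.6 and 12.8 CPM in Nr1d1-/- tumours, against 20.2 and 10.3 CPM in Nr1d1+/+ tumours (log2 fold -0.37, SE 0.35, edgeR adjusted p = 0.436). The groups overlapped, so this check does not separate the labels, and a count over a whole gene need not fall where part of it is deleted. The groups are therefore named as the libraries are labelled.

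Markers of other cell types also differed between the groups, and their part in the results was not tested. Red blood cell markers summed to 2017 and 2194 CPM in Nr1d1-/- tumours against 453 and 581 CPM in Nr1d1+/+ tumours, with 5 of 5 tested higher. Adipocyte markers summed to 229 and 163 CPM against 54.4 and 59.5 CPM in Nr1d1+/+ tumours, with 3 of 6 higher, and endothelial markers to 96.3 and 111 CPM against 47.4 and 58.7 CPM, with 5 of 8 higher. Skeletal muscle markers stood at 776 CPM in Nr1d1-/- replicate 1 and at 6.02 CPM in Nr1d1-/- replicate 2, against 3.55 and 2.30 CPM in Nr1d1+/+ tumours, with 5 of 5 tested higher. Mammary epithelial markers, which define the labelled tissue, summed to 11095 and 10150 CPM in Nr1d1-/- tumours against 7484 and 6428 CPM in Nr1d1+/+ tumours, with 4 of 12 higher and 3 lower. Immune markers summed to 71.6 and 92.8 CPM in Nr1d1-/- tumours against 61.5 and 87.3 CPM in Nr1d1+/+ tumours, with none of 10 tested called by edgeR, DESeq2 or limma-voom, and 1 at an unadjusted p under 0.05 in edgeR. The 8 fibroblast markers (1031 and 1083 CPM against 585 and 1057 CPM in Nr1d1+/+ tumours) and the 5 basal epithelial markers (324 and 450 CPM against 138 and 157 CPM) had 1 and 2 genes called higher, and 1 basal marker was called lower.

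Homologous recombination was the largest group, and its clearest change was a fall of Rad50. Of its 15 genes none was higher and 2, Rad50 and Palb2, were lower in Nr1d1-/- tumours (13.3%). All tested genes had 16.5% higher and 17.3% lower. The median log2 fold of the 15 was -0.30. That median was -0.51 without Nr1d1-/- replicate 1 and -0.043 without Nr1d1+/+ replicate 2. The summed level of the 15 was 121 and 129 CPM in Nr1d1-/- tumours, against 185 and 186 CPM in Nr1d1+/+ tumours. Rad50 alone, described next, made up most of that difference.

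Rad50 is the ATP-driven arm of the MRN complex, which holds broken ends and starts their resection. It had 14.3 and 15.0 CPM in Nr1d1-/- tumours (195 and 242 counts), against 63.3 and 51.6 CPM in Nr1d1+/+ tumours (1337 and 1078 counts). The 2 Nr1d1-/- libraries lay close together and far under both Nr1d1+/+ libraries. Rad50 fell 3.92-fold (log2 fold -1.97, SE 0.22, edgeR adjusted p = 0.00182), and was lower in every alternative fit and in every fit without 1 library. The gene lies on chromosome 11 at 53649519 to 53707319 (GRCm38, - strand). Nr1d1 is on the same chromosome at 98767932 to 98775333, as are Brca1 (101488764 to 101551955), Rad51c and Lig3. Whether their position bears on their levels was not tested. The partners of Rad50 in the complex did not pass the test. Mre11a, the nuclease, had 22.1 and 23.8 CPM in Nr1d1-/- tumours and 21.8 and 22.8 CPM in Nr1d1+/+ tumours. Nbn, the subunit that recruits ATM, had 11.3 and 14.0 CPM against 16.9 and 24.0 CPM in Nr1d1+/+ tumours (edgeR adjusted p = 0.0866).

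Palb2, which joins BRCA1 to BRCA2 at breaks, had 1.25 and 0.683 CPM in Nr1d1-/- tumours (17 and 11 counts), against 3.55 and 3.16 CPM in Nr1d1+/+ tumours (75 and 66 counts). The groups did not overlap, but the gene rested on few counts. Palb2 fell 3.53-fold (log2 fold -1.82, SE 0.54, edgeR adjusted p = 0.0308). The adjusted p missed the threshold when Nr1d1-/- replicate 2, Nr1d1+/+ replicate 1 or Nr1d1+/+ replicate 2 was left out. It also did so with the length and base composition trends removed (0.0767). The log2 fold of Palb2 was between -2.29 and -1.44 in the fits without 1 library. Brca1, the ubiquitin ligase subunit that promotes resection, had 6.23 and 6.08 CPM in Nr1d1-/- tumours against 10.5 and 6.89 CPM in Nr1d1+/+ tumours (log2 fold -0.50, SE 0.35, adjusted p = 0.294). Brca2, which loads the recombinase onto single strands, had 3.89 and 4.47 CPM against 6.48 and 7.23 CPM in Nr1d1+/+ tumours (log2 fold -0.71, SE 0.35, adjusted p = 0.148). The values of both genes were lower in each Nr1d1-/- library than in either Nr1d1+/+ library, and neither passed the test. With the trends removed their log2 folds were -0.059 and -0.25, and that of Brca1 was -0.21 without Nr1d1+/+ replicate 1 and -0.79 without Nr1d1+/+ replicate 2.

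The other 9 genes of this route did not pass the test. Wrn, a RecQ helicase, came nearest, at 4.77 and 7.82 CPM in Nr1d1-/- tumours against 11.0 and 13.02 CPM in Nr1d1+/+ tumours (log2 fold -0.92, edgeR adjusted p = 0.0645). Wrn was called without Nr1d1-/- replicate 2 (adjusted p = 0.0281). The related helicase Blm had overlapping groups. Rad51c, a paralogue of the recombinase, had a log2 fold of 0.69 (adjusted p = 0.177), from 11.9 and 6.70 CPM in Nr1d1-/- tumours and 5.82 and 5.65 CPM in Nr1d1+/+ tumours. The 2 Nr1d1-/- libraries differed more from each other than the Nr1d1+/+ libraries did, and without Nr1d1-/- replicate 1 the log2 fold was 0.22. The other paralogues Xrcc2, Xrcc3 and Rad51b, the translocase Rad54l, the annealing protein Rad52 and Bard1, the partner of BRCA1, had log2 folds between -0.30 and 0.48.

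In end joining the kinase Prkdc fell, while the Ku subunits and the ligase did not pass the test. Of 5 genes none was higher and 1 was lower (20%), where all tested genes had 16.5% higher and 17.3% lower. The median log2 fold of the 5 was -0.25. The median was -0.049, -0.50 and -0.044 when Nr1d1-/- replicate 1, Nr1d1+/+ replicate 1 and Nr1d1+/+ replicate 2 was left out. Prkdc encodes DNA-PKcs, which is drawn to ends by Ku. It had 1.91 and 2.79 CPM in Nr1d1-/- tumours (26 and 45 counts), against 5.68 and 8.38 CPM in Nr1d1+/+ tumours (120 and 175 counts). Prkdc fell 2.96-fold (log2 fold -1.56, SE 0.43, edgeR adjusted p = 0.0228). This call did not hold without Nr1d1-/- replicate 1, without Nr1d1+/+ replicate 2 or with the trends removed (adjusted p = 0.0775). The log2 fold of Prkdc was between -1.90 and -1.28 in the fits without 1 library. Neither Ku subunit passed the test. Xrcc6 (Ku70) had 69.1 and 70.9 CPM in Nr1d1-/- tumours against 52.9 and 47.8 CPM in Nr1d1+/+ tumours (log2 fold 0.47, SE 0.18, adjusted p = 0.0729). Xrcc5 (Ku80) had 20.4 and 27.9 CPM against 24.6 and 33.1 CPM in Nr1d1+/+ tumours (log2 fold -0.25, SE 0.26, adjusted p = 0.473), with overlapping groups. Xrcc4, the scaffold of the ligase complex, also overlapped, and Lig4, the ligase itself, had at most 2.06 CPM in any library.

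Damage signalling held genes called in both directions, at 22.2% higher and 11.1% lower, against 16.5% and 17.3% of all tested genes. Of 9 genes 2, H2afx and Rnf168, were higher and 1, Trp53bp1, was lower in Nr1d1-/- tumours, with a median log2 fold of -0.29 that was 0.12 without Nr1d1+/+ replicate 2. These 3 act in 1 chain: the histone variant H2AX is phosphorylated beside a break, RNF8 and RNF168 add ubiquitin to the chromatin, and 53BP1, encoded by Trp53bp1, binds there and limits resection.

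H2afx had 42.4 and 40.6 CPM in Nr1d1-/- tumours, against 22.8 and 25.5 CPM in Nr1d1+/+ tumours (log2 fold 0.78, SE 0.20, edgeR adjusted p = 0.0193). Both Nr1d1-/- libraries were higher than both Nr1d1+/+ libraries. H2afx is short (1384 bases) and rich in G and C (62.3%), and with both trends removed its log2 fold was -0.11 (adjusted p = 0.741), so the direction was turned round. The call was also lost with scaling by total counts alone (log2 fold 0.40, adjusted p = 0.174). It was lost too when Nr1d1-/- replicate 1, Nr1d1+/+ replicate 1 or Nr1d1+/+ replicate 2 was left out. The log2 fold of H2afx was between 0.66 and 0.84 in the fits without 1 library.

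Rnf168 had 44.4 and 39.3 CPM in Nr1d1-/- tumours, against 26.0 and 28.8 CPM in Nr1d1+/+ tumours (log2 fold 0.61, SE 0.20, edgeR adjusted p = 0.0468). With the trends removed its log2 fold was larger, at 1.06 (adjusted p = 0.0082). In the fits without 1 library its log2 fold was between 0.49 and 0.68, and its call was lost in each. It was also lost with no filter (0.0733) and with scaling by total counts alone (log2 fold 0.23, adjusted p = 0.429). Rnf8, the ligase upstream, had 32.5 and 47.8 CPM in Nr1d1-/- tumours and 36.3 and 37.1 CPM in Nr1d1+/+ tumours, so its groups overlapped. In the annotation Rnf8 shares 1542 exonic bases with the readthrough gene Rnf8-cmtr1 on the same strand, so its level is uncertain.

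Trp53bp1 had 29.4 and 23.0 CPM in Nr1d1-/- tumours, against 47.7 and 45.5 CPM in Nr1d1+/+ tumours (log2 fold -0.83, SE 0.21, edgeR adjusted p = 0.0179). Both Nr1d1-/- libraries were lower, and by more than the libraries of a genotype differed. Trp53bp1 shares 15% of its exonic bases with Tubgcp4 on the opposite strand, which was not called. The call ended without Nr1d1-/- replicate 2, without Nr1d1+/+ replicate 1 or 2, and with the trends removed (adjusted p = 0.0946). The log2 fold of Trp53bp1 was between -1.02 and -0.68 in the fits without 1 library. Among the kinases, Atm, which answers breaks, had 20.3 and 11.3 CPM in Nr1d1-/- tumours against 22.9 and 30.8 CPM in Nr1d1+/+ tumours (log2 fold -0.77, SE 0.31, adjusted p = 0.0894). Atr, which answers stalled forks, had 10.04 and 7.01 CPM against 12.5 and 12.2 CPM in Nr1d1+/+ tumours (log2 fold -0.54, SE 0.30, adjusted p = 0.196). Neither kinase passed the test, although without Nr1d1-/- replicate 1 Atm did (adjusted p = 0.0189). The checkpoint kinases downstream showed no separation of the groups. Chek1 had 4.40 and 4.28 CPM in Nr1d1-/- tumours against 3.93 and 6.94 CPM in Nr1d1+/+ tumours (log2 fold -0.32, SE 0.41, adjusted p = 0.571), and Chek2 had a log2 fold of 0.15. Mdc1, the scaffold that binds phosphorylated H2AX, had a log2 fold of -0.29 (adjusted p = 0.334).

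**Figure D2:**
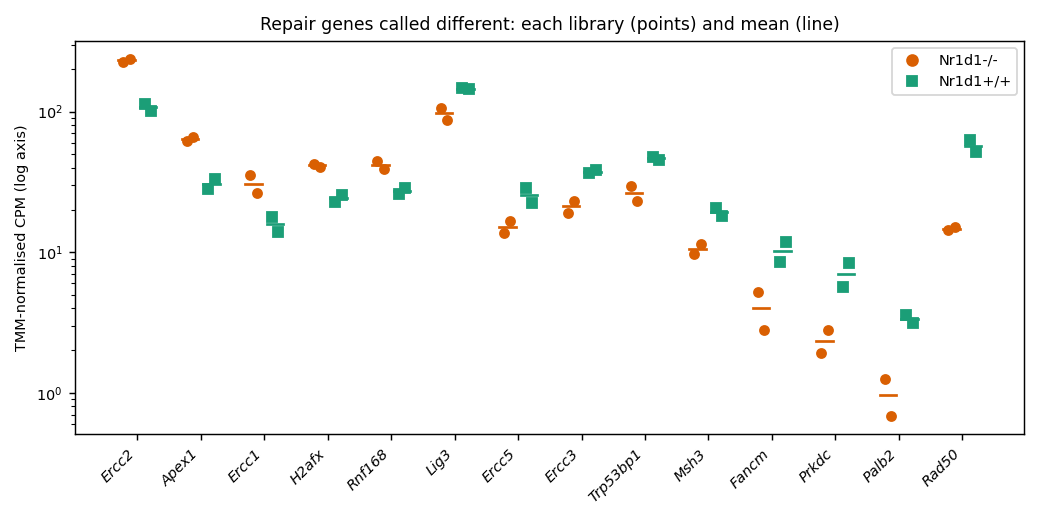
TMM-normalised CPM (log axis) of the 14 repair genes called higher or lower, with a point for each library and a line at the genotype mean. Orange circles are the 2 Nr1d1-/- libraries and green squares the 2 Nr1d1+/+ libraries. The groups do not overlap for any of the 14, which were chosen by their call, so this is no separate result. Of all tested genes 34.4% were higher and 36.2% lower without overlap. The gap is widest for Rad50.

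The Fanconi genes had the lowest median of the 7 roles, except without Nr1d1-/- replicate 2, where theirs was -0.42 and that of mismatch repair -0.62. Of 5 genes none was higher and 1, Fancm, was lower (20%), where all tested genes had 16.5% higher and 17.3% lower. The median log2 fold of the 5 was -0.76, which ranged from -1.10 to -0.42 across the fits without 1 library. Fancm encodes the translocase that brings the Fanconi core complex to stalled forks. It had 5.21 and 2.79 CPM in Nr1d1-/- tumours, against 8.47 and 11.9 CPM in Nr1d1+/+ tumours (log2 fold -1.37, SE 0.40, edgeR adjusted p = 0.03). This call did not hold without Nr1d1-/- replicate 2, without Nr1d1+/+ replicate 2 or with the trends removed (adjusted p = 0.118). The log2 fold of Fancm was between -1.87 and -0.99 in the fits without 1 library. Fancd2 and Fanci encode the pair that is ubiquitinated at crosslinks. Fancd2 had 2.71 and 1.18 CPM in Nr1d1-/- tumours against 2.98 and 3.50 CPM in Nr1d1+/+ tumours (log2 fold -0.76, SE 0.51, adjusted p = 0.277). Fanci had 7.11 and 4.84 CPM against 11.0 and 9.82 CPM in Nr1d1+/+ tumours (log2 fold -0.81, SE 0.33, adjusted p = 0.0901). For both, each Nr1d1-/- library was under each Nr1d1+/+ library. Of the core complex genes, Fanca had a log2 fold of -0.41 and no overlap between the groups, and Fancc had 0.36 and overlapping groups. With the trends removed the median of the 5 was -0.37 and none was called.

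In mismatch repair Msh3 fell and the other 3 genes did not pass the test. The share lower was 25% with none higher, where all tested genes had 17.3% lower and 16.5% higher. The product of Msh3 recognises insertion and deletion loops, and that of Msh6 recognises single mismatches. Msh3 had 9.68 and 11.4 CPM in Nr1d1-/- tumours, against 20.5 and 18.2 CPM in Nr1d1+/+ tumours (log2 fold -0.87, SE 0.26, edgeR adjusted p = 0.031). Both Nr1d1-/- libraries were well under both Nr1d1+/+ libraries. Msh3 was not called when Nr1d1-/- replicate 1, Nr1d1+/+ replicate 1 or Nr1d1+/+ replicate 2 was left out, nor with the trends removed (adjusted p = 0.183). Its log2 fold was between -1.02 and -0.76 in the fits without 1 library. Msh6 had 21.3 and 19.4 CPM in Nr1d1-/- tumours against 27.9 and 22.9 CPM in Nr1d1+/+ tumours (log2 fold -0.32, SE 0.23, adjusted p = 0.304). Pms2, the endonuclease partner, and Exo1, the exonuclease, had log2 folds of 0.02 and -0.01 with overlapping groups. The Nr1d1-/- libraries were far apart for Exo1, at 3.96 and 11.0 CPM.

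Nucleotide excision repair held 4 called genes, in both directions. The shares were 22.2% higher and 22.2% lower, where all tested genes had 16.5% higher and 17.3% lower. Of 9 genes 2, Ercc2 and Ercc1, were higher and 2, Ercc3 and Ercc5, were lower in Nr1d1-/- tumours, with a median log2 fold of -0.025, which was -0.20 without Nr1d1-/- replicate 2 and -0.21 without Nr1d1+/+ replicate 2. Their products meet at the same lesion: XPD (Ercc2) and XPB (Ercc3) are the helicases of TFIIH that open the helix, and ERCC1-XPF and XPG (Ercc5) are the nucleases that cut the strand on either side.

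Ercc2 had 225 and 239 CPM in Nr1d1-/- tumours, against 113 and 102 CPM in Nr1d1+/+ tumours. Both Nr1d1-/- libraries were above both Nr1d1+/+ libraries, and the libraries of a genotype lay close together. Ercc2 rose 2.16-fold (log2 fold 1.11, SE 0.17, edgeR adjusted p = 0.00305), and was higher in every alternative fit and in every fit without 1 library. With the trends removed its log2 fold was 0.86 (adjusted p = 0.0086). The gene lies on chromosome 7 at 19382010 to 19395694 (+ strand) and overlaps exons of genes on the opposite strand. It shares 744 exonic bases (17.8%) with Klc3, a kinesin light chain gene, and 1025 (24.6%) with Gm26852. Klc3 had 531 and 494 CPM in Nr1d1-/- tumours against 233 and 166 CPM in Nr1d1+/+ tumours (log2 fold 1.36, adjusted p = 0.00298). The sources used here do not say whether strand was used in counting, so the level of Ercc2 is uncertain and reads of the partners cannot be told apart.

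Ercc1 had 35.3 and 26.4 CPM in Nr1d1-/- tumours, against 17.7 and 13.9 CPM in Nr1d1+/+ tumours (log2 fold 0.96, SE 0.25, edgeR adjusted p = 0.0204). The call was lost with scaling by total counts alone (log2 fold 0.58, adjusted p = 0.0947) and with the trends removed (log2 fold 0.33, adjusted p = 0.361). It was also lost without Nr1d1-/- replicate 1 and without Nr1d1+/+ replicate 2. The log2 fold of Ercc1 was between 0.74 and 1.14 in the fits without 1 library. Ercc1 shares 106 exonic bases (3.41%) with Cd3eap on the opposite strand, a gene that rose to 186 and 131 CPM in Nr1d1-/- tumours, against 52.99 and 59.8 CPM in Nr1d1+/+ tumours (log2 fold 1.49, adjusted p = 0.00275). Ercc4, which encodes the XPF partner, had a log2 fold of 0.05 with overlapping groups.

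Ercc3 had 19.1 and 23.3 CPM in Nr1d1-/- tumours, against 36.3 and 38.7 CPM in Nr1d1+/+ tumours (log2 fold -0.82, SE 0.22, edgeR adjusted p = 0.0206). It kept its size and its call with the trends removed (log2 fold -0.80, adjusted p = 0.028). It was not called when Nr1d1-/- replicate 1, Nr1d1+/+ replicate 1 or Nr1d1+/+ replicate 2 was left out. Its log2 fold was between -0.99 and -0.69 in the fits without 1 library. Ercc5 had 13.6 and 16.8 CPM in Nr1d1-/- tumours, against 28.9 and 22.3 CPM in Nr1d1+/+ tumours (log2 fold -0.75, SE 0.25, adjusted p = 0.0494). Ercc5 stood at the threshold and was called in 4 of 16 alternatives. It was not called when Nr1d1-/- replicate 1, Nr1d1+/+ replicate 1 or Nr1d1+/+ replicate 2 was left out. Its log2 fold was between -0.95 and -0.59 in the fits without 1 library.

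The genes that find the lesion did not pass the test. Xpc, the sensor of the genome-wide branch, had 19.8 and 22.2 CPM in Nr1d1-/- tumours against 28.7 and 26.6 CPM in Nr1d1+/+ tumours (log2 fold -0.40, SE 0.22, edgeR adjusted p = 0.192). Ddb1 and Ddb2 encode the UV damage sensor. Ddb1 had 314 and 331 CPM in Nr1d1-/- tumours against 282 and 302 CPM in Nr1d1+/+ tumours (log2 fold 0.14, SE 0.17, adjusted p = 0.533), the highest level per length of all 56 genes at a mean of 68.9 CPM per kb. Ddb2 and Xpa, the protein that checks the opened site, had log2 folds of -0.16 and -0.02 with overlapping groups. Ddb2 shares 23.8% of its exonic bases with Acp2 on the opposite strand, which was called higher (log2 fold 0.97), so its level is uncertain.

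Base excision and single-strand break repair was the one role with a positive median, 0.47, which was 0.088 with scaling by total counts alone and -0.051 with the trends removed. Of 9 genes 1, Apex1, was higher and 1, Lig3, was lower in Nr1d1-/- tumours. These shares were 11.1% each, against 16.5% and 17.3% of all tested genes. Apex1 encodes the endonuclease that cuts the strand at an abasic site. It had 61.7 and 65.8 CPM in Nr1d1-/- tumours, against 28.1 and 33.3 CPM in Nr1d1+/+ tumours. The groups were well apart. Apex1 rose 2.08-fold (log2 fold 1.06, SE 0.20, edgeR adjusted p = 0.00554), and was higher in every alternative fit and in every fit without 1 library. With the trends removed its log2 fold was 0.66 (adjusted p = 0.0424). Apex1 lies on chromosome 14 at 50924968 to 50927139 (+ strand), and 877 of its exonic bases (61.7%) are also annotated to Tmem55b on the opposite strand. Tmem55b had 34.5 and 40.0 CPM in Nr1d1-/- tumours against 23.7 and 25.2 CPM in Nr1d1+/+ tumours (log2 fold 0.61, adjusted p = 0.0515), so the level of Apex1 is uncertain on the same ground as that of Ercc2.

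Lig3, the ligase that seals single-strand breaks, had 107 and 88.0 CPM in Nr1d1-/- tumours, against 146 and 144 CPM in Nr1d1+/+ tumours (log2 fold -0.58, SE 0.18, edgeR adjusted p = 0.0366). Lig3 was not called when Nr1d1-/- replicate 2, Nr1d1+/+ replicate 1 or Nr1d1+/+ replicate 2 was left out, nor with the trends removed (adjusted p = 0.352). Its log2 fold was between -0.72 and -0.46 in the fits without 1 library. Lig3 shares 25.1% of its exonic bases with Rffl on the opposite strand, which was not called. Its scaffold Xrcc1 lay on the other side, at 82.8 and 77.2 CPM in Nr1d1-/- tumours against 61.8 and 47.0 CPM in Nr1d1+/+ tumours (log2 fold 0.55, adjusted p = 0.0607), and did not pass the test. The glycosylases, which remove the damaged base, did not pass. Each was higher in both Nr1d1-/- libraries than in both Nr1d1+/+ libraries, as were 34.4% of all tested genes, and with the trends removed Ogg1, Mutyh and Ung had log2 folds of -0.065, -0.060 and 0.14. Ogg1, which removes oxidised guanine, had 12.5 and 14.1 CPM in Nr1d1-/- tumours against 10.03 and 10.5 CPM in Nr1d1+/+ tumours (log2 fold 0.38, SE 0.27, adjusted p = 0.304). It shares 10.6% of its exonic bases with Camk1 on the opposite strand, which was called higher. Ung, which removes uracil, and Mutyh, which removes adenine opposite oxidised guanine, had log2 folds of 0.54 and 0.47. Polb, the gap-filling polymerase, had 76.5 and 92.6 CPM in Nr1d1-/- tumours against 57.4 and 60.5 CPM in Nr1d1+/+ tumours (log2 fold 0.52, adjusted p = 0.0589). Parp1, the main sensor of strand breaks, had 62.5 and 77.3 CPM in Nr1d1-/- tumours against 67.2 and 86.3 CPM in Nr1d1+/+ tumours (log2 fold -0.13, SE 0.21, adjusted p = 0.644), and its relative Parp2 had a log2 fold of -0.27.

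Genes whose products work as partners were also set side by side. With 42 of the 56 members not called, a difference in call between partners says little alone. A ratio of partner levels within 1 library does not depend on the scaling between libraries. It does depend on the length of both transcripts, and its difference between libraries is not corrected for the length and GC trends described below. With those trends removed the log2 folds were -1.52 for Rad50 and 0.49 for Mre11a, and -1.17 for Prkdc and 0.48 for Xrcc6. They were 0.86 and -0.80 for Ercc2 and Ercc3, 0.33 and 0.055 for Ercc1 and Ercc4, and -0.23 and 0.16 for Lig3 and Xrcc1. With 2 libraries a genotype these ratios were not tested. Rad50 over Mre11a was 0.646 and 0.632 in Nr1d1-/- tumours, against 2.91 and 2.26 in Nr1d1+/+ tumours. Prkdc over Xrcc6 was 0.0276 and 0.0394 against 0.107 and 0.175 in Nr1d1+/+ tumours. For the TFIIH helicases the Nr1d1-/- libraries had the higher ratio. Ercc2 over Ercc3 was 11.8 and 10.2 in Nr1d1-/- tumours against 3.11 and 2.63 in Nr1d1+/+ tumours. Ercc1 over Ercc4 was 1.52 and 1.29 against 0.715 and 0.804 in Nr1d1+/+ tumours, and Lig3 over Xrcc1 was 1.29 and 1.14 against 2.37 and 3.06. The Fancd2 to Fanci, Atm to Atr, Parp1 to Parp2, Lig4 to Xrcc4 and Brca1 to Bard1 ratios overlapped between the genotypes. Those of Nbn to Mre11a, Xrcc5 to Xrcc6, Palb2 to Brca2 and Msh3 to Msh6 were lower in Nr1d1-/- tumours without overlap. The Ddb1 to Ddb2 and Rnf168 to Rnf8 ratios were higher without overlap. Of all tested genes taken singly, 34.4% were higher and 36.2% lower without overlap.

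**Figure D3:**
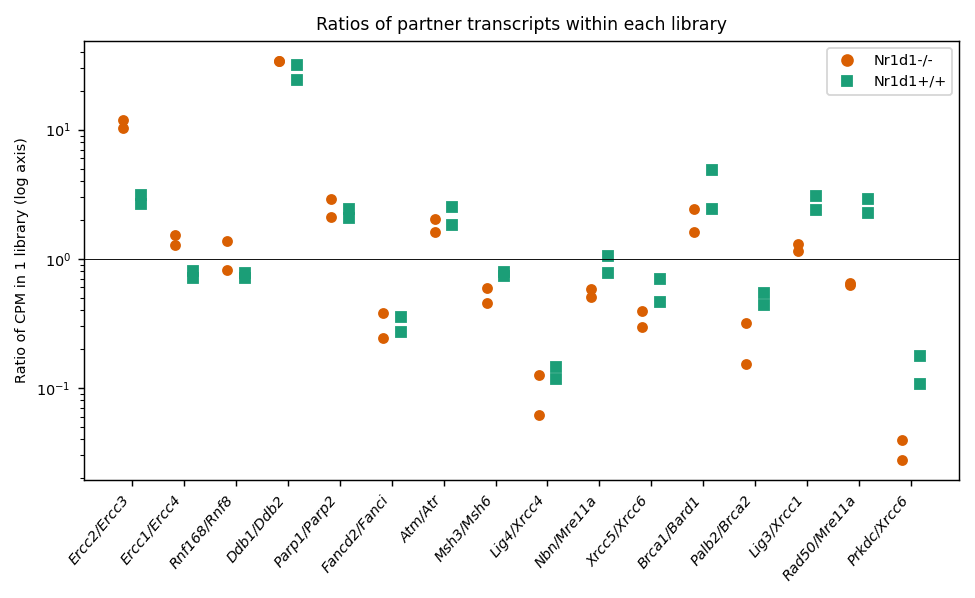
Ratio of CPM between the 2 transcripts of each partner pair within a library (log axis), for 16 pairs. Orange circles are Nr1d1-/- libraries and green squares Nr1d1+/+ libraries; Ercc2 over Ercc3 is highest in Nr1d1-/- libraries relative to Nr1d1+/+ libraries, and Prkdc over Xrcc6 and Rad50 over Mre11a are lowest.

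The size of a member's difference moved with the length and the base composition of its transcript. Over the 56 genes Spearman's rho of the log2 fold was -0.580 with annotated length and 0.501 with GC content. Over the 14656 tested genes with both properties it was -0.321 and 0.314. These are correlations across genes, which share the same 4 libraries and are not independent, and no p is given. The 10 members shorter than 2000 bases had a median log2 fold of 0.42, with 3 higher (30%) and none lower, and all tested genes of that length had 0.44, with 28.4% higher and 3.67% lower. The 22 members of 2000 to 4000 bases had -0.036, with 4.55% higher and 18.2% lower, against -0.042, 13.05% and 15.7% for all tested genes. The 24 members over 4000 bases had -0.50, with 1 higher (4.17%) and 5 lower (20.8%), against -0.43, 10.7% and 30.9% for all tested genes. The medians of the members lay near those of all genes of their length, while over 4000 bases smaller shares of the members were called in either direction.

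**Figure D4:**
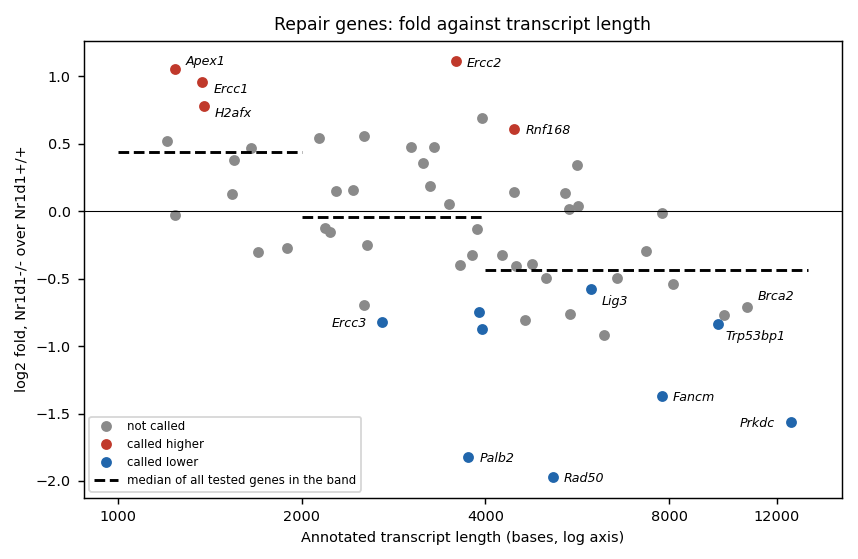
Log2 fold of Nr1d1-/- over Nr1d1+/+ against annotated transcript length (log axis) for the 56 repair genes, coloured by call. Dashed lines give the median of all tested genes in the bands under 2000, 2000 to 4000 and over 4000 bases (0.44, -0.042 and -0.43); Rad50, Palb2, Prkdc and Fancm lie under the line of their band, and Ercc2 and Rnf168 above it.

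The same test was run with each library's trends on length and GC content removed. Then 3 repair genes, Rnf168, Ercc2 and Apex1, were higher and 2, Rad50 and Ercc3, were lower, where 11% of all genes were higher and 11.1% lower. Rad50 had a log2 fold of -1.52 (edgeR adjusted p = 0.0034). The median over the 56 genes was then -0.047. By role it was -0.059 in homologous recombination, 0.029 in end joining, 0.014 in damage signalling, -0.37 in the Fanconi pathway, 0.17 in mismatch repair, -0.074 in nucleotide excision repair and -0.051 in base excision repair. The base excision genes thus no longer had a positive median, and the Fanconi genes kept the lowest. Of the 14 called genes, Rad50, Ercc2 and Apex1 were called in the same direction in all 16 alternatives.

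**Figure D5:**
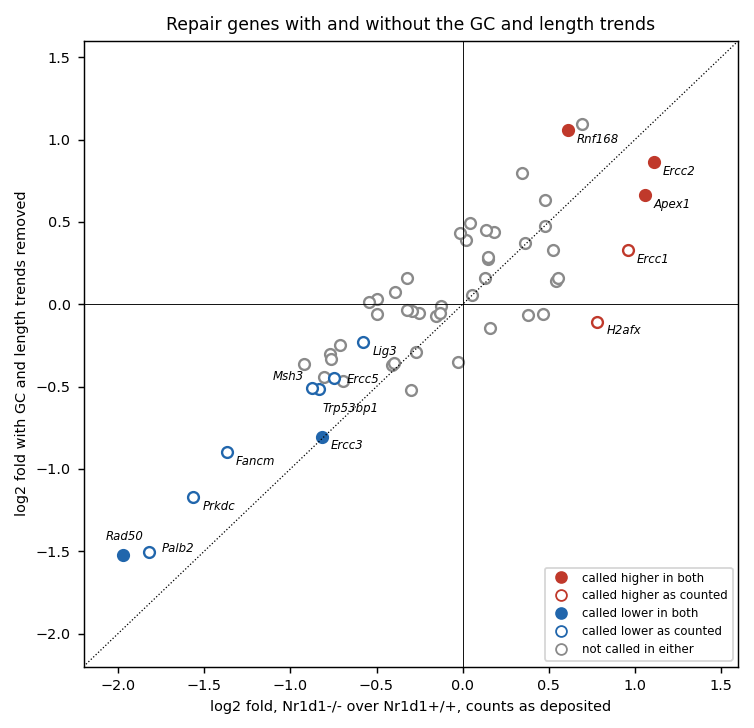
Log2 fold of Nr1d1-/- over Nr1d1+/+ with the length and GC trends removed (vertical axis) against the log2 fold from the counts as deposited (horizontal axis) for the 56 repair genes, with the line of equality dotted. Filled points are the 5 genes called both ways; H2afx lies below 0 once the trends are removed, and Rnf168 lies above the line.

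Another 134 genes of the same pathways were listed, of which 132 were tested. Of these 16 were higher (12.1%) and 29 lower (22%), against 16.5% and 17.3% of all tested genes, with a median log2 fold of -0.15, close to that of the 56. After removal of the trends 11 were higher (8.33%) and 14 lower (10.6%), against 11% and 11.1% of all genes. Across the fits without 1 library their median was between -0.21 and -0.081, and fewer were called in each direction, as among all genes. The translesion and direct reversal genes stood lowest, with 6 of 11 lower, none higher and a median of -0.99. In the higher direction 1 of these had an unadjusted p under 0.05 in edgeR, DESeq2 called none and limma-voom called 1. With the trends removed 3 of the 11 were lower (27.3%), against 11.1% of all genes, and with no filter 3 (27.3%) against 11.5%. Their median was between -0.99 and -0.84 across the fits without 1 library. Fewer of them were lower in each of these fits, as among all genes. Rev3l, the catalytic subunit of DNA polymerase zeta, had 1.91 and 2.73 CPM in Nr1d1-/- tumours against 13.8 and 18.2 CPM in Nr1d1+/+ tumours (log2 fold -2.77, edgeR adjusted p = 0.00225). Hltf, a translocase that remodels stalled forks, had 7.62 and 6.58 CPM against 22.3 and 22.6 CPM in Nr1d1+/+ tumours (log2 fold -1.66). Among 20 other signalling genes 8 were lower (40%) and 1 higher, with a median of -0.64. Removal of the trends left 3 lower (15%), against 11.1% of all genes, and the median was -0.24. Without 1 library the median of these 20 was between -0.79 and -0.52, and fewer were lower, as among all genes. Topbp1, the activator of ATR, had 12.8 and 14.1 CPM in Nr1d1-/- tumours against 32.2 and 39.6 CPM in Nr1d1+/+ tumours (log2 fold -1.42). Of 12 other Fanconi genes 3 were lower (25%) and 1 higher (8.33%). Their median of -0.14 was between -0.13 and 0.12 across the fits without 1 library. Usp1, which removes ubiquitin from FANCD2, had 14.6 and 16.1 CPM in Nr1d1-/- tumours against 33.8 and 46.6 CPM in Nr1d1+/+ tumours (log2 fold -1.39).

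The remaining lists held changes both ways. Of all tested genes 16.5% were higher and 17.3% were lower. Other homologous recombination genes had 4 higher and 4 lower of 30 (13.3% each), and other end joining genes 3 and 3 of 14 (21.4% each). Other nucleotide excision genes had 2 and 2 of 18 (11.1% each), and other base excision genes 2 and 2 of 12 (16.7% each). Other mismatch repair genes had 3 higher (20%) and 1 lower (6.67%) of 15. Across the fits without 1 library these were 1 to 3 higher and 0 to 2 lower, 1 to 3 and 1 to 3, 0 to 1 and 1 to 3, 1 to 3 and 1 to 2, and 1 to 2 and 1, in the same order. In base excision repair Nudt1, which clears oxidised nucleotides, had 25.2 and 30.9 CPM against 10.4 and 8.81 CPM in Nr1d1+/+ tumours (log2 fold 1.55). Tdg, a glycosylase, had 3.37 and 5.40 CPM in Nr1d1-/- tumours against 15.0 and 19.8 CPM in Nr1d1+/+ tumours (log2 fold -1.97). In nucleotide excision repair Cul4a, the cullin that works with DDB1, had 30.6 and 28.5 CPM against 66.5 and 83.5 CPM in Nr1d1+/+ tumours (log2 fold -1.34). Rev3l, Hltf, Topbp1, Usp1, Nudt1, Tdg and Cul4a were called in every alternative.

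Targets of p53, the factor that damage signalling activates, were called in both directions, with 4 higher (13.3%) and 7 lower (23.3%) of 30 and a median of -0.37, against 16.5% and 17.3% of all tested genes. In the fit with the trends removed 1 was higher (3.33%) and 2 were lower (6.67%), against 11% and 11.1% of all genes. Across the fits without 1 library the median of the 30 was between -0.64 and -0.18, and fewer were lower, as among all genes. Zmat3, which encodes an RNA-binding protein, had 365 and 242 CPM in Nr1d1-/- tumours against 98.0 and 48.8 CPM in Nr1d1+/+ tumours (log2 fold 2.05). Bax, which opens the mitochondrial membrane in apoptosis, rose in the counts as deposited (log2 fold 1.25) and not with the trends removed (log2 fold 0.21, edgeR adjusted p = 0.474). Of those that fell, Trp53inp1, a regulator of cell death, had 16.2 and 10.5 CPM in Nr1d1-/- tumours against 28.5 and 33.7 CPM in Nr1d1+/+ tumours (log2 fold -1.22, adjusted p = 0.0107), and was not called without Nr1d1+/+ replicate 2 (0.0555) or with the trends removed (0.129). Ccng1, which encodes a cyclin, had 50.1 and 31.8 CPM in Nr1d1-/- tumours against 96.9 and 74.7 CPM in Nr1d1+/+ tumours (log2 fold -1.07, adjusted p = 0.0137), and was not called with the trends removed (0.122). Proliferation markers had 4 higher and 4 lower of 34 (11.8% each) and a median of -0.16. Without 1 library that median was between -0.36 and -0.049. The markers summed to 1638 and 1535 CPM in Nr1d1-/- tumours against 1439 and 1698 CPM in Nr1d1+/+ tumours. The genotypes overlapped in this sum.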

How the data were processed

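Per the labels' protocols, Trizol was used for extraction and a SMARTer Stranded kit for the libraries. TopHat and mm10 are the aligner and build in the submitters' processing notes. The authors deposited raw counts per gene symbol, 1 file a library. The sources used here do not give the counting program, gene annotation, use of strand or rRNA depletion. The deposited total counts were 15905404 and 18017279 in Nr1d1-/- and 19116279 and 17768820 in Nr1d1+/+ replicates 1 and 2.

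Everything else was computed here. Of 23282 gene rows, 22230 were joined to GENCODE M21 (GRCm38) directly, 675 through a synonym and 377 not at all. After filterByExpr (minimum count 10), 14801 genes were tested with edgeR 4.0.16 in R 4.3.3 (TMM factors, quasi-likelihood F test with legacy=FALSE, a genotype term alone, residual degrees of freedom 2, biological coefficient of variation 0.249). Calls were made at an adjusted p under 0.05 (Benjamini-Hochberg, over all tested genes). Length is that of the annotated transcript joined to the symbol. The trend-removed fit took as offsets, in 14656 genes, natural splines (degrees of freedom 5) of GC content and length fitted to each library. Other alternatives were DESeq2 1.42.0, limma-voom (limma 3.58.1), other scalings and filters, a replicate block, Rn45s left out, and each library left out in turn. Same-numbered libraries deviated together with a correlation of 0.0272, so the numbers were not taken as pairs. The fit was also run on simulated counts, which held few changed genes and no length or GC trend. That run therefore does not cover these features of the data. Figures were drawn with matplotlib 3.10.9.

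The members, classes and lists were chosen with earlier results of these data known. Full values are given for called members and for a fixed set of anchor genes, such as Brca1, Atm and Parp1. From each list of other genes at most the 2 called genes with the lowest p in each direction are named. Promoter windows and their coordinates are from RefSeq on GRCm38.p6. Some genes that this rule would name are left out.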

Additional observations from a re-analysis of the deposited data

How the results depend on the processing

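Against 5 repair genes higher and 9 lower, scaling by total counts alone gave 2 higher and 19 lower. Removal of the length and GC trends gave 3 higher and 2 lower, and the replicate block with the trends removed gave the same 3 and 2. A mean of at least 5 CPM left 50 members to test, with 8 higher (16%) and 7 lower (14%). Of all 10859 genes tested under that filter 21.6% were higher and 21.2% lower. Leaving out 1 library gave between 2 and 4 higher and between 1 and 6 lower. Among all genes, 2446 were higher and 2567 lower, against 1281 and 4410 with scaling by total counts alone and 1610 and 1634 with the trends removed, and leaving out 1 library gave between 1037 and 2358 higher and between 1175 and 2401 lower. The causes were not tested. The replicate block gave 6 repair genes higher and 9 lower, and 2621 and 2704 of all genes. It moved Ercc5 over the threshold (edgeR adjusted p = 0.0533) and brought Wrn (0.0468) and Xrcc1 (0.0383) under it. Of the 56 members, 33 kept their sign in every alternative, and of the 14 called members only H2afx changed sign.

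The log2 folds that changed sign with scaling by total counts alone were Bard1 -0.036, Mre11a -0.34, Xrcc2 -0.19, Xrcc3 -0.22, Xrcc4 -0.24, Chek2 -0.24, Rnf8 -0.24, Fancc -0.015, Pms2 -0.36, Ercc4 -0.32, Ddb1 -0.24 and Ogg1 -0.0013. With the trends removed, and then with the replicate block as well, they were Xrcc3 -0.14 and -0.14, Blm 0.073 and 0.094, Lig4 0.029 and 0.030, Atr 0.014 and 0.0056, Chek1 0.16 and 0.19, H2afx -0.11 and -0.10, Exo1 0.43 and 0.28, Ogg1 -0.065 and -0.068, Mutyh -0.060 and -0.060, and Rffl 0.22 and 0.23. With no filter Pms2 was -0.011. With upper quartile factors Exo1 was 0.052 and Xpa 0.035, and with a mean of at least 5 CPM they were 0.018 and 0.016. Leaving out 1 library gave ranges across 0 for Mre11a (-0.037 to 0.090), Rad51b (-0.53 to 0.21), Rad52 (-0.73 to 0.011), Xrcc4 (-0.30 to 0.43), Chek1 (-0.72 to 0.12), Chek2 (-0.084 to 0.33), Rnf8 (-0.19 to 0.38), Fancc (-0.42 to 0.83), Pms2 (-0.089 to 0.097), Exo1 (-0.97 to 0.52), Ercc4 (-0.21 to 0.28), Xpa (-0.26 to 0.16), Parp1 (-0.35 to 0.034) and Nr1d1 (-0.80 to 0.14). Palb2 rested on 11 to 75 counts a library, and whether depth limited its calls was not tested.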
